A study of Rattus norvegicus with 12 samples.

Results

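The comparison described here set the tissue that filled a bone defect around a 3D printed hydrogel scaffold against the tissue of an empty defect, in 6 of the 12 libraries of the series. The hydrogel was gelatin methacryloyl (GelMA), a chemically modified gelatin that hardens under light. The defect was drilled into the distal femur of Sprague Dawley rats that were 8 weeks old, the scaffold was placed in it in the hydrogel group, and no scaffold was placed in the control group. Both groups had the same operation and no other treatment is named, and the tissue was taken 2 weeks after it. The 3 hydrogel and 3 control libraries were made from RNA of the whole tissue, and the paper's methods name no selection of polyadenylated RNA. The other 6 libraries, from defects with scaffolds of PCL (a polyester) or β-TCP (a calcium phosphate ceramic), were not part of the comparison. They entered the shared estimate of the spread, the filter on low genes, the principal components and the alternative scaling of libraries. Members were the genes with at least 1 FPKM (fragments scaled to transcript length and library size) in at least 3 of the 12 libraries, which were 12633 of the 22601 genes in the table. Whether each library is 1 rat is not stated in the sources used here, and the p-values cover the spread between these libraries alone.

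A drilled bone defect first fills with clotted blood and marrow cells and then with granulation tissue, cartilage and woven bone, which osteoclasts and osteoblasts remodel. In endochondral repair, chondrocytes under the transcription factor Sox9 lay down collagens II, IX and XI and aggrecan, then enlarge under Indian hedgehog, make collagen X and are replaced by bone. Red and white blood cell precursors of the surrounding marrow are part of the same tissue, so a library of whole tissue mixes all of these cells.

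Col1a1 and Bglap, genes expressed in bone, were detected in every library of the comparison. Col1a1, the main collagen of bone, was at 8945, 8401 and 3635 FPKM in the hydrogel libraries, against 10515, 7902 and 11860 FPKM in the control libraries. Bglap, the osteoblast product osteocalcin, was at 662, 520 and 225 FPKM in the hydrogel libraries, against 570, 436 and 221 FPKM in the control libraries. Both genes overlapped between the groups, and they are named after their values were seen.

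Control replicate 3 stood apart from the other libraries. The depth recovered from the FPKM was alike in both groups, at 15035925 to 16599877 fragments in the hydrogel libraries and 15180263 to 16302309 in the control libraries. Along principal component 1 of log2(FPKM + 1), which held 54.5% of the variance of the 12 libraries, hydrogel replicates 1 to 3 lay at -26.6, -13.1 and -52.2, against 0.35, -23.2 and 81.7 for control replicates 1 to 3. The distance between control replicates 1 and 2 was 40.7 (Euclidean, log2 values over all genes tested), within the 36.4 to 56.3 between hydrogel libraries, whereas control replicate 3 lay 95.9 and 112.1 from the other controls. Hemoglobin transcripts, the product of red cell precursors, held 18.0%, 10.01% and 19.0% of the FPKM in the hydrogel libraries, against 9.23%, 14.6% and 1.03% in the control libraries. Col2a1, the main collagen of cartilage, held 0.0258%, 0.0178% and 0.244% of the fragments in the hydrogel libraries, against 0.707%, 0.746% and 4.94% in the control libraries. Control replicate 3 was thus the library poorest in hemoglobin and richest in Col2a1, and values without it are given beside the main results below. In bulk tissue, fewer cells of a type and less RNA per cell cannot be told apart.

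**Figure D1:**
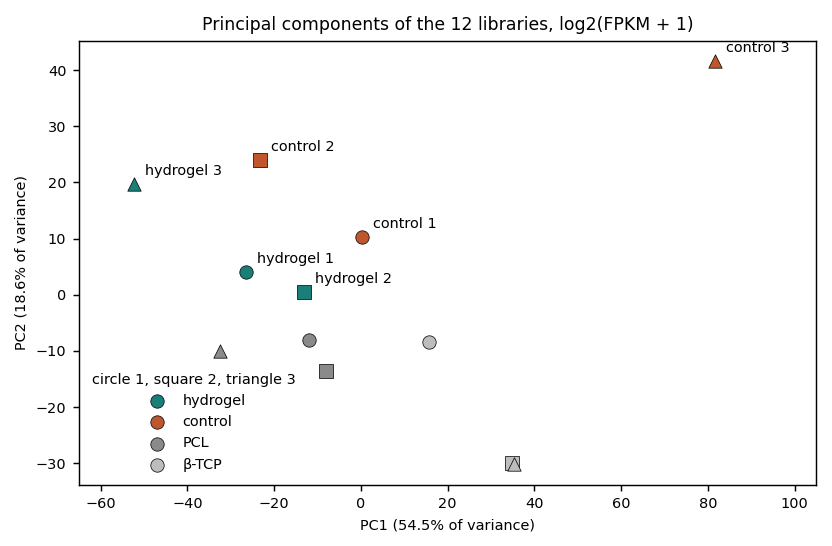
Each point is 1 library on the first (horizontal) and second (vertical) principal component of log2(FPKM + 1) over the 12633 genes tested, with the share of variance on each axis, colour for the group and shape for the replicate. The 3 hydrogel libraries lie between -52.2 and -13.1 on the first component, control replicates 1 and 2 at 0.35 and -23.2, and control replicate 3 far to the right at 81.7.

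The hydrogel comparison gave few genes, and more lower than higher ones. Genes were called by the rule of the study's methods, more than a 2-fold difference either way (a ratio above 2 or below 0.5) at a p below 0.05 before adjustment, from limma on log2(FPKM + 1), a scale on which fold changes of low genes are understated. In the hydrogel group 289 of 12633 genes (2.29%) were called, 102 higher (0.807%) and 187 lower (1.48%) than in the control group. A single gene, Rps10l1 (0.00792%), passed a Benjamini-Hochberg adjusted p under 0.05, and 1894 genes had an unadjusted p under 0.05. The median log2 fold change over all genes was 0.14 as deposited and 0.02 after median-of-ratios scaling. That scaling changed the split to 59 higher and 255 lower genes, and changes below should be read against this shift.

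Most of the calls rested on control replicate 3. Without it, 17 genes (0.135%) were higher and 77 (0.61%) lower. Among the 102 higher genes, 12 were also called without it, and it was the lowest control library in 98. Among the 187 lower genes, 70 were also called without it, and it was the highest control library in 180. The libraries of the groups did not overlap in 30 of the 102 higher and in 160 of the 187 lower genes. Over all genes tested, 8499 of the 12633 log2 fold changes were positive, control replicate 3 was the lowest of the 6 libraries in 7501 genes and hydrogel replicate 3 the highest in 4954. The 3 hydrogel libraries all lay above the 3 control libraries in 1156 genes (9.15%) and all below them in 755 (5.98%). With each of the 6 libraries left out in turn, 7 higher and 65 lower genes were called every time. Leaving out control replicate 1 or 2 instead turned the split to 341 higher and 251 lower, or 840 higher and 354 lower, and leaving out hydrogel replicate 3 gave 25 higher and 135 lower.

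**Figure D2:**
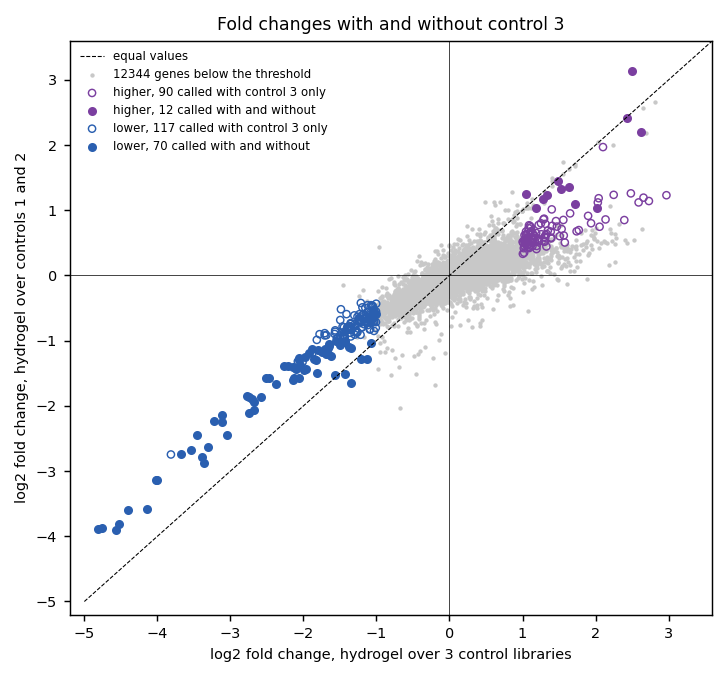
Each point is 1 of the 12633 genes, with the log2 fold change of the hydrogel over the 3 control libraries on the horizontal axis and over control replicates 1 and 2 on the vertical axis; filled points were called in both fits and open points only with control replicate 3. Of the higher genes 12 of 102 are filled and of the lower genes 70 of 187, and most higher genes lie below the dashed line of equal values.

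Cartilage genes were the group with the largest difference. Of 19 tested genes of cartilage matrix and chondrocytes, 15 were lower in the hydrogel group and 0 higher, with a median log2 fold change of -3.23 against 0.14 over all genes. In the same 15 genes, every hydrogel library lay below every control library. Among all 12633 genes, 187 (1.48%) were called lower, and in 755 (5.98%) every hydrogel library lay below every control library. Without control replicate 3 the median was -2.23 and 12 of the 19 were called. The count was 12 to 16 with any 1 library left out. These genes together held 0.0806%, 0.0909% and 0.182% of the FPKM in the hydrogel libraries, against 0.618%, 0.55% and 3.78% in the control libraries.

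Col2a1, which encodes the fibrillar collagen of cartilage, was at 47.4, 32.6 and 448 FPKM in the hydrogel libraries, against 1298, 1370.5 and 9071 FPKM in the control libraries. Hydrogel replicate 3 was the highest of its group and still below each control library. The log2 fold change was -4.81 (SE 1.27, unadjusted p = 0.0032, limma), and it was -3.89 without control replicate 3. The collagen IX genes, whose product sits on collagen II fibrils, moved alike. Col9a1 was at 0.837, 4.08 and 44.0 FPKM in the hydrogel libraries, against 124, 99.4 and 441 FPKM in the control libraries (log2 fold change -4.56, SE 1.197). Col9a2 and Col9a3 had log2 fold changes of -4.53 and -4.41, with hydrogel replicate 3 at 28.5 and 49.0 FPKM and the other hydrogel libraries at 1.14 to 5.51 FPKM. Col11a1, the collagen that nucleates cartilage fibrils and is also made in bone, was lower by less (-1.35), and its value of -0.84 without control replicate 3 did not pass the fold threshold.

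Proteoglycans and their partners followed. Acan, the aggregating proteoglycan that holds water in cartilage, was at 11.6, 18.2 and 37.7 FPKM in the hydrogel libraries, against 151, 118 and 811 FPKM in the control libraries (log2 fold change -3.54, SE 0.69, unadjusted p = 3.7e-04, limma). Its groups did not overlap, and the value was -2.68 without control replicate 3. Hapln1, the link protein that ties aggrecan to hyaluronan, was at 4.67, 6.87 and 29.7 FPKM in the hydrogel libraries, against 97.2, 96.1 and 606 FPKM in the control libraries (-4.02, SE 0.95). Comp, a pentameric glycoprotein that binds collagen fibrils, was at 6.59, 9.16 and 56.2 FPKM in the hydrogel libraries, against 167, 123 and 884 FPKM in the control libraries (-4.01, SE 1.05). In each of these the hydrogel libraries were ordered with replicate 3 highest. Matn3, a filament-forming protein of growth cartilage, had a log2 fold change of -3.12, Chad, a collagen-binding leucine-rich protein, of -3.23, Ucma, a secreted protein of early chondrocytes, of -3.37 and Lect1, the anti-angiogenic chondromodulin, of -4.14, and all of these calls were also made without control replicate 3.

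Of the transcription factors Sox9 and Sox6, Sox9 was lower. Sox9, the chondrocyte transcription factor, was at 1.43, 1.32 and 1.44 FPKM in the hydrogel libraries, against 4.08, 3.06 and 14.01 FPKM in the control libraries. Its log2 fold change was -1.50 (unadjusted p = 0.0031, limma), and -0.92 without control replicate 3, where the fold threshold was not reached. Sox6, a partner of Sox9, was not called (0.21), and neither were Matn4 (0.24), Cytl1 (-1.27) and Prg4, the lubricin of joint surfaces (-0.20), all with overlapping libraries. Sox6 is named, like Sox9, Matn4, Cytl1 and Prg4, after its value was seen.

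Genes of hypertrophic cartilage and of hedgehog signaling were also lower in part. The share called lower over all genes tested was 1.48%. Col10a1, the collagen of enlarged chondrocytes, was at 9.87, 6.62 and 27.1 FPKM in the hydrogel libraries, against 130, 284 and 1219 FPKM in the control libraries (log2 fold change -4.75, SE 0.93, unadjusted p = 4.0e-04, limma). Ihh, the hedgehog ligand of prehypertrophic chondrocytes, was at 0.822, 0.531 and 1.17 FPKM in the hydrogel libraries, against 6.84, 15.3 and 45.2 FPKM in the control libraries (-3.31, SE 0.61). Both genes were called with any 1 of the 6 libraries left out, at -3.87 and -2.63 without control replicate 3. Pth1r, the receptor of the parathyroid hormone-related peptide that restrains enlargement, and Panx3, a channel protein of prehypertrophic cells and osteoblasts, completed the 4 of 8 genes called lower, and these 2 were not called without control replicate 3 (-0.93 and -0.69). The hedgehog receptor Ptch1 (-1.44) and the effector Gli1 (-1.40), both induced by hedgehog ligand, were 2 of 8 pathway genes called. Their values were -0.87 and -0.80 without control replicate 3, with 0 of 8 pathway genes called by limma.

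**Figure D3:**
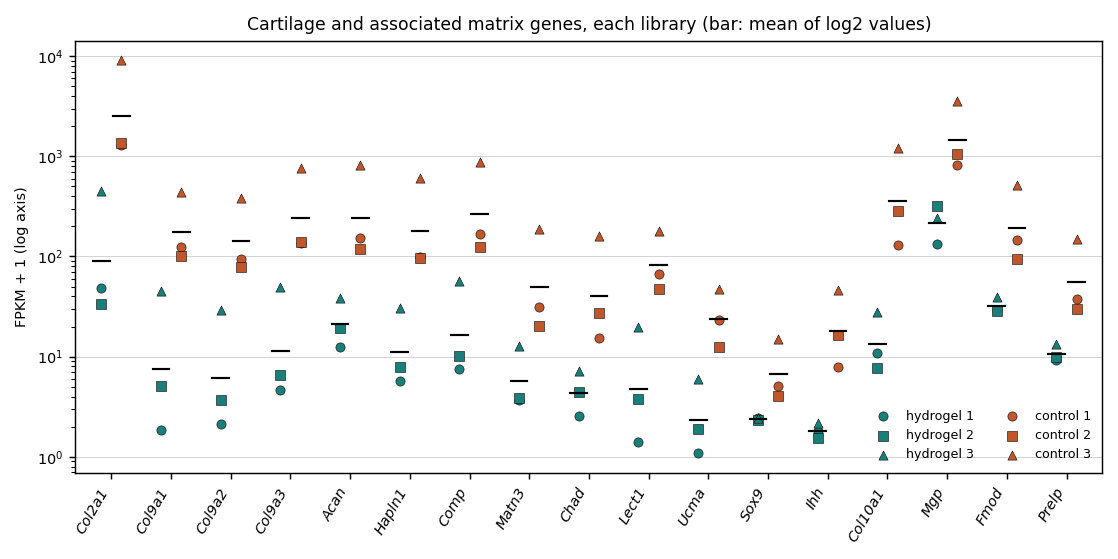
FPKM + 1 on a log axis for 17 genes of cartilage and associated matrix, with the 3 hydrogel libraries to the left of the 3 control libraries for each gene, shapes for the replicate and bars for the mean of the log2 values. For each gene shown every hydrogel library lies below every control library, and control replicate 3 (triangle) is the highest, for example at 9071 FPKM of Col2a1.

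The bases before the start of such genes are shown to make their promoters visible, since many of these genes moved together. The sequences are from the RefSeq promoter table of build GRCr8, not of the files' build, and are the 100 bases before the annotated start, on the strand of the gene, 5′ to 3′. Capitals mark the letters TATAAA, the core of a TATA box, or ACAAAG, a match to the core bound by SOX factors. Col10a1 and Chad were lower and Dpt higher in the hydrogel group in every fit with a library left out. Scrg1, stimulator of chondrogenesis 1, was lower (log2 fold change -3.04).
Col10a1 (chromosome 20, plus strand): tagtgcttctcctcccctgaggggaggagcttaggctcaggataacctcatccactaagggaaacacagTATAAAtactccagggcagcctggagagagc
Chad (chromosome 10, plus strand): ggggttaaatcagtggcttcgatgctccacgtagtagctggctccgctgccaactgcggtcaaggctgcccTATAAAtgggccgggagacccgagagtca
Dpt (chromosome 13, plus strand): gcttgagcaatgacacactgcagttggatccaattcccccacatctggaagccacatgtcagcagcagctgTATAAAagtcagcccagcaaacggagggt
Scrg1 (chromosome 16, minus strand): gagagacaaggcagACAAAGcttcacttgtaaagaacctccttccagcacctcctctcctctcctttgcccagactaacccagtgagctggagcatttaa
The TATAAA began 31 bases before the start in Col10a1 and 29 before it in Chad and in Dpt. Of the 65 genes lower in every fit with a library left out, 45 matched a promoter, and TATAAA stood within 250 bases on either strand in 3 of them (6.67%), against 623 of 9420 promoters of tested genes (6.61%) and 3593 of 27457 in the table (13.1%). The letters ACAAAG or ACAATG stood on either strand in 12 of the 45 (26.7%), against 16.7% of tested and 24.8% of all promoters. Of all 187 lower genes 129 matched a promoter, with TATAAA in 14 (10.9%) and the SOX letters in 19 (14.7%). A match describes letters only and was read as neither a site nor a cause.

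Collagens and matrix proteins outside cartilage were lower as well, by smaller amounts. Among all 12633 genes, 187 (1.48%) were called lower and 4134 had a negative log2 fold change. Of 28 fibrillar collagens and collagen processing genes, 10 were lower and all 28 had a negative log2 fold change, with a median of -0.81 (-0.49 without control replicate 3, with 5 called). Col1a2, the second chain of collagen I, was at 286, 345 and 101 FPKM in the hydrogel libraries, against 391, 499 and 488 FPKM in the control libraries. Its groups did not overlap (log2 fold change -1.08, unadjusted p = 0.019, limma), and hydrogel replicate 3 was the lowest. For Col1a1 the value was -0.62 with overlap and no call. PCOLCE2, an enhancer of collagen propeptide cleavage, was at 5.36, 12.4 and 17.9 FPKM in the hydrogel libraries, against 63.7, 61.5 and 526 FPKM in the control libraries (-3.46). P3h2, a collagen prolyl hydroxylase (-2.20), Loxl4, a crosslinking oxidase (-1.55), and Col27a1, a fibrillar collagen of cartilage (-1.49), were called with and without control replicate 3.

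Among 14 microfibrillar and associated collagens, 7 were lower (median -1.05), 2 of them without control replicate 3. The share called lower over all genes was 1.48%. Col12a1, a collagen on the surface of fibrils in dense tissue, was at 56.7, 71.5 and 40.2 FPKM in the hydrogel libraries, against 164, 102 and 292 FPKM in the control libraries (-1.62). Col8a2, a short-chain collagen, was at -1.50. Of the small leucine-rich proteoglycans, which bind fibrils and set their diameter, 3 of 8 were lower. Fmod (fibromodulin) was at 28.5, 27.4 and 38.4 FPKM in the hydrogel libraries, against 143, 92.8 and 520 FPKM in the control libraries (-2.58), and Prelp was at -2.38. Both were called in every fit with a library left out, whereas Bgn (biglycan, -1.21) was called in 4 of the 6 and not without control replicate 3 (-0.72). Kera (keratocan), of the same list, was 1 of 5 genes called higher only without control replicate 3 (log2 fold change 1.005 there).

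Of 31 matrix glycoproteins, 8 were lower (median -0.65, and 5 called at a median of -0.38 without control replicate 3). The share called lower over all genes was 1.48%, and 0.61% without control replicate 3. Mgp, a protein that inhibits calcification of cartilage and vessels, was at 132, 319 and 244 FPKM in the hydrogel libraries, against 827, 1064 and 3571 FPKM in the control libraries (log2 fold change -2.75, SE 0.52, unadjusted p = 3.0e-04, limma). The matricellular proteins Ctgf (-2.27) and Cyr61 (-1.81), both growth factor-binding proteins induced by mechanical load, and Cilp2, a cartilage layer protein (-1.98), did not overlap between the groups. Their calls were made in every fit with a library left out. Fn1 (fibronectin) was at -1.35 and, without control replicate 3, at -0.74. Of 12 basement membrane genes 4 were lower, among them Col4a1 (-1.16), Hspg2 (perlecan, -1.04), Nid2 (-1.04) and Col4a2 (-1.03). Without control replicate 3 limma called 0 of these 12, where the median was -0.44.

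Bone-forming genes overlapped between the groups more often than cartilage genes did. Every hydrogel library lay below every control library in 5 of 19 osteoblast and osteocyte genes, against 15 of 19 cartilage genes. The same held for 755 of all 12633 genes (5.98%), and 1.48% of all genes were called lower. Of 19 osteoblast and osteocyte genes 3 were lower and 0 higher, and limma called 0 of them without control replicate 3, where the median was -0.48, against -0.58 with it. Without hydrogel replicate 3 the median was -0.20, with 1 gene called. Alpl, the phosphatase that frees phosphate for mineral, was at 110, 98.3 and 55.4 FPKM in the hydrogel libraries, against 130, 141 and 425 FPKM in the control libraries (log2 fold change -1.23). Hydrogel replicate 3 was the lowest and control replicate 3 the highest. Smpd3, a sphingomyelinase needed for mineralization in mice, was at -1.08, and Tnfrsf11b, the decoy receptor osteoprotegerin that blocks osteoclast formation, at -1.20. Runx2, the osteoblast transcription factor, was at 18.0, 17.04 and 9.06 FPKM in the hydrogel libraries, against 24.2, 19.9 and 30.7 FPKM in the control libraries. Its groups did not overlap, but the log2 fold change of -0.76 was below the fold threshold. Runx2 is named after its value was seen.

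Osteoclast and lysosomal genes were not called. Of 14 osteoclast genes limma called 0, with 1 at an unadjusted p under 0.05, Acp5, the tartrate-resistant acid phosphatase (log2 fold change -0.65, libraries overlapping), and limma-voom on recovered fragments also called 0. Ctsk, the collagen-cleaving cathepsin of osteoclasts, was at 2706, 3693 and 1614 FPKM in the hydrogel libraries, against 3118, 2157 and 3580 FPKM in the control libraries. The log2 fold change was -0.19 (SE 0.29) and turned to 0.13 without hydrogel replicate 3. Of 25 lysosomal genes limma and limma-voom called 0, and 0 had an unadjusted p under 0.05. Ctsb was at -0.03 (SE 0.18), Ctsd at -0.21 (SE 0.24) and Ctsz at -0.13 (SE 0.19), with overlap in each. The gelatinase Mmp9 (-0.41, SE 0.33) and the protease inhibitor Serpine2 (-0.27, SE 0.31) overlapped too.

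Signaling genes that were called were lower. For scale, 187 of all 12633 genes (1.48%) were called lower. Of 25 Wnt pathway genes 5 were lower, led by Frzb, a secreted Wnt antagonist of cartilage, at 1.91, 1.78 and 4.54 FPKM in the hydrogel libraries, against 8.92, 15.8 and 81.1 FPKM in the control libraries (log2 fold change -2.75). Frzb was called with any 1 library left out, while Fzd9, a Wnt receptor (-1.54), was not called without control replicate 3. Of the 16 FGF and IGF pathway genes, Fgfrl1 (-1.36) and Igfbp3 (-1.35), which binds insulin-like growth factors, were lower, and Igfbp3 kept its call without control replicate 3. Tgfb2 (-1.40) and Inhba (-1.12) were the calls among 33 TGF-beta and BMP genes. The angiogenic ligands Apln (-1.45) and Vegfa (-1.29) were lower in 2 of 12 genes, and the hypoxia response genes Car9 (-1.71) and Bnip3 (-1.24) in 2 of 19. None of Tgfb2, Inhba, Apln, Vegfa, Car9 and Bnip3 was called by limma without control replicate 3. Of 22 endothelial genes limma and limma-voom called 0, with 6 lower at an unadjusted p under 0.05 (limma), against 805 of all 12633 genes. The log2 fold changes of the endothelial genes were negative in 18 of 22, against 4134 of all 12633 genes. Their median was -0.38, and -0.17 without control replicate 3. Eng (endoglin), a TGF-beta co-receptor of endothelium, was at 35.8, 38.4 and 22.3 FPKM in the hydrogel libraries, against 46.6, 33.2 and 63.4 FPKM in the control libraries (-0.55, unadjusted p = 0.051, limma). Tie1, an endothelial receptor, was at 27.4, 29.0 and 24.2 FPKM in the hydrogel libraries, against 28.4, 27.3 and 25.6 FPKM in the control libraries.

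Lower genes outside these lists included several called in every fit with a library left out. Anxa8, an annexin, was at 2.27, 1.74 and 4.67 FPKM in the hydrogel libraries, against 24.2, 23.2 and 172 FPKM in the control libraries (log2 fold change -3.67). Arsi, an arylsulfatase, was at 0.77, 0.848 and 2.09 FPKM in the hydrogel libraries, against 11.2, 17.4 and 51.2 FPKM in the control libraries (-3.39, SE 0.48, unadjusted p = 2.7e-05, limma). Susd5 (-3.11) and Car12, a membrane carbonic anhydrase (-2.77), were called in every fit with a library left out, and Clec3a, a cartilage lectin (-3.81), in 4 of the 6 and not without control replicate 3 (-2.75). S100b, a calcium-binding protein of Schwann cells that chondrocytes also make, was at -2.71. Myl3, a myosin light chain of slow muscle and heart, was at 0.188, 0.264 and 0.484 FPKM in the hydrogel libraries, against 1.77, 3.50 and 9.57 FPKM in the control libraries (-1.96). It was the only 1 of 28 skeletal muscle genes called lower.

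Few higher genes held without control replicate 3. Dpt, which encodes dermatopontin, a small matrix protein that binds decorin, was at 22.6, 41.6 and 38.4 FPKM in the hydrogel libraries, against 4.96, 5.85 and 5.11 FPKM in the control libraries. The 3 control libraries, replicate 3 included, lay close together. The log2 fold change was 2.44 (SE 0.57, unadjusted p = 0.0014, limma) and 2.42 without control replicate 3, so its direction was opposite to that of most matrix genes. RT1-M2, a class Ib histocompatibility gene (reads from close relatives may be counted in it), was at 3.49, 4.11 and 3.79 FPKM in the hydrogel libraries, against 0.823, 0.70 and 0.593 FPKM in the control libraries (1.49, SE 0.20, unadjusted p = 2.0e-05, limma). Sowaha, an ankyrin repeat protein, was at 6.43, 1.62 and 4.05 FPKM in the hydrogel libraries, against 0.708, 0.902 and 0 FPKM in the control libraries (1.64). LOC100361706, annotated as an immunoglobulin lambda constant region-like gene, was at 17.03, 21.0 and 38.4 FPKM in the hydrogel libraries, against 4.32, 4.55 and 1.28 FPKM in the control libraries (2.62, SE 0.41, unadjusted p = 6.4e-05, limma). Immunoglobulin constant genes are alike, and its share of reads from others is uncertain.

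Among the steadily higher genes were a ribosomal protein S10-like gene and a ribosomal protein S9 gene. Rps10l1, the 1 gene past the adjusted threshold, was at 65.6, 70.9 and 78.2 FPKM in the hydrogel libraries, against 29.2, 33.5 and 24.2 FPKM in the control libraries (log2 fold change 1.28, SE 0.13, adjusted p = 0.018, limma). The RefSeq table of GRCr8 lists it as a pseudogene, and its reads may be shared with Rps10, at 509, 459 and 524 FPKM in the hydrogel libraries, against 470, 474 and 342 FPKM in the control libraries (0.23, overlapping). The adjusted call was lost without hydrogel replicate 1, 2 or 3 and stayed with any 1 control library left out. LOC103689992, a 40S ribosomal protein S9 gene whose gene ID the GRCr8 table names Rps9, was at 199, 155 and 237 FPKM in the hydrogel libraries, against 33.1, 13.3 and 82.4 FPKM in the control libraries (2.50, SE 0.70, unadjusted p = 0.0046, limma). A separate row named Rps9 was at or near 0, at most 0.0871 FPKM, in these 6 libraries. LOC100911727, a DNA ligase 1-like copy (1.34) called in 5 of the 6 fits with a library left out, was at 5.31, 3.22 and 1.17 FPKM in the hydrogel libraries, against 0.578, 0.726 and 0.315 FPKM in the control libraries, while Lig1 overlapped (0.67). The seventh gene called higher in every fit with a library left out was LOC108350747, an endogenous retrovirus Gag-like gene with overlapping libraries (1.73).

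Ribosomal protein genes as a list shifted little but together. Of 76 tested, 0 were called at the fold threshold by limma or by limma-voom, yet all 76 had a positive log2 fold change. In limma 69 had an unadjusted p under 0.05, and in 68 every hydrogel library lay above every control library. Over all 12633 genes, 1089 were higher at an unadjusted p under 0.05 (limma). Every hydrogel library lay above every control library in 1156 of them (9.15%). The median was 0.36 against 0.14 over all genes, and 0.22 against 0.02 after median-of-ratios scaling. Rps29 was at 1596, 1661 and 1693 FPKM in the hydrogel libraries, against 1335, 1333 and 1158 FPKM in the control libraries (0.37, SE 0.10). Rpl41 had a log2 fold change of 0.28. In 70 of the 76 genes the hydrogel libraries also lay above control replicates 1 and 2, and the median was 0.26 without control replicate 3. Of 54 oxidative phosphorylation genes, 0 were called by limma or limma-voom, 25 had an unadjusted p under 0.05 and all 54 were positive, as were 8499 of all 12633 genes, with a median of 0.23 that became 0.09 after scaling. Cox4i1, a subunit of cytochrome oxidase, was at 377, 367 and 377 FPKM in the hydrogel libraries, against 333, 322 and 267 FPKM in the control libraries. Txnip, an inhibitor of thioredoxin that responds to glucose, was at 138, 174 and 161 FPKM in the hydrogel libraries, against 88.3, 71.0 and 94.3 FPKM in the control libraries. Its log2 fold change of 0.89 (SE 0.16, unadjusted p = 1.9e-04, limma) stopped short of the fold threshold, as did the 0.98 without control replicate 3.

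**Figure D4:**
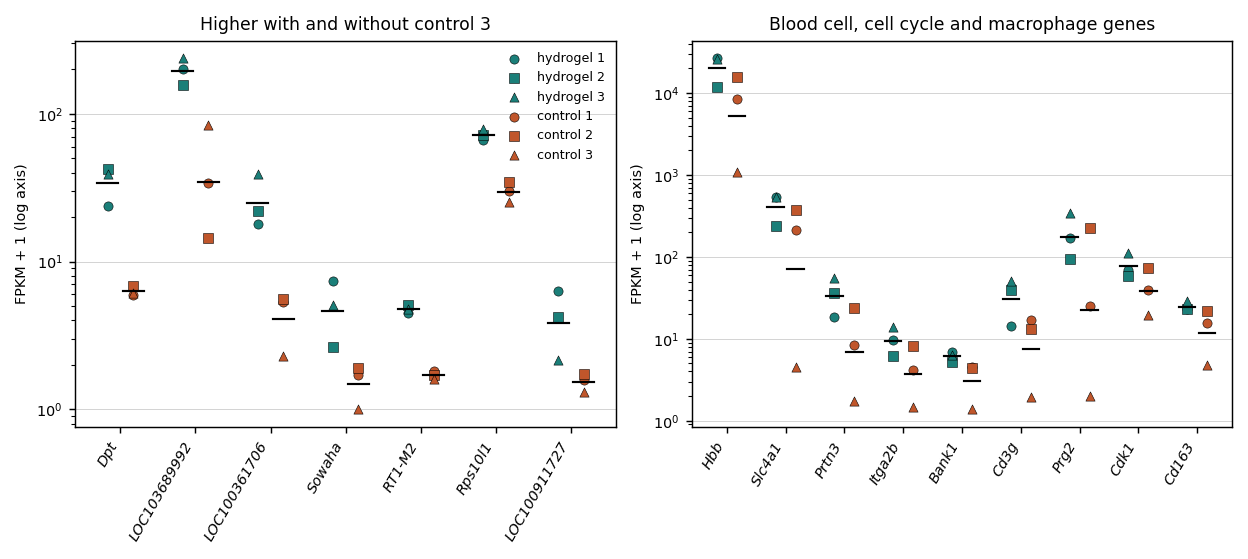
FPKM + 1 on a log axis with the 3 hydrogel libraries to the left of the 3 control libraries for each gene, shapes for the replicate and bars for the mean of the log2 values. On the left are 7 genes called higher with and without control replicate 3, with every hydrogel library above every control library; on the right are genes of blood cells, cell division and macrophages, in which control replicate 3 (triangle) is the lowest library, for example 1082 FPKM of Hbb.

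Genes of blood cells were higher on average, and the difference was much smaller without control replicate 3. Of 24 erythroid membrane proteins and transcription factors limma called 0 (0 at an unadjusted p under 0.05, 2 by limma-voom), although all 24 were positive with a median log2 fold change of 1.81. In all 24, control replicate 3 was the lowest of the 6 libraries, as it was in 7501 of all 12633 genes, and the median was 0.45 without it. Slc4a1, the red cell anion exchanger, was at 539, 238 and 534 FPKM in the hydrogel libraries, against 210, 373 and 3.59 FPKM in the control libraries (2.52, SE 1.32). Hbb, a beta globin whose near-identical copies may share reads, was at 26612, 11806 and 25813 FPKM in the hydrogel libraries, against 8373, 15881 and 1082 FPKM in the control libraries. It was called at 1.94 (unadjusted p = 0.044, limma), as was Hbb-b1 (2.05). These were the only calls among 21 globin and heme synthesis genes, where 0.807% of all genes were called higher. Neither was called without control replicate 3. Urod (1.16), an enzyme of heme synthesis, overlapped and was not called, and Mgst3, a microsomal glutathione transferase, was called at 1.31 with overlap and was not called without control replicate 3 (0.58).

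The medians of white cell and platelet genes were also closer to 0 without control replicate 3. For scale, 102 of all 12633 genes (0.807%) were called higher, and control replicate 3 was the lowest of the 6 libraries in 7501 genes. Of 16 neutrophil genes Prtn3, the granule proteinase 3, and Cebpe, a factor of granule formation, were higher, and the median was 1.87 with and 0.33 without control replicate 3. Of 13 eosinophil and mast cell genes Prg2 (2.97) and Epx (2.48), 2 granule proteins of eosinophils, were higher, and the list's median was 0.81 with and 0.10 without control replicate 3. Prg2 was at 170, 92.8 and 342 FPKM in the hydrogel libraries, against 24.2, 224 and 1.02 FPKM in the control libraries, so control replicate 2 lay within the hydrogel range. Of 21 B cell genes Bank1 (1.02) was higher, at a median of 1.63 with and 0.32 without control replicate 3. Of 11 platelet and megakaryocyte genes Tubb1, Itga2b, Mmrn1 and Clec1b were higher, at 1.40, 1.35, 1.22 and 1.19, and the list's median was 1.19 with and 0.60 without control replicate 3. The median of 22 T and NK cell genes was 0.64 with and 0.15 without control replicate 3. Among them Cd3g, a chain of the T cell receptor complex, was at 13.4, 38.5 and 50.2 FPKM in the hydrogel libraries, against 16.1, 12.3 and 0.933 FPKM in the control libraries (2.02), and it was the only blood cell gene of these lists still called without control replicate 3 (1.03). Nkg7 (1.33) and Cd3d (1.22) were called with it only. Mcpt9, a mast cell protease, was at 17.4, 19.0 and 27.0 FPKM in the hydrogel libraries, against 10.9, 10.2 and 0.493 FPKM in the control libraries. Its log2 fold change was 1.90 without overlap, and that of Cd36, a fatty acid and scavenger receptor, 1.14 without overlap, but at 0.91 and 0.55 neither was called without control replicate 3.

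Some genes of dividing cells were called higher. Of 38 mitotic genes 4 were higher, among them Ccnb1 (cyclin B1, 1.30) and Cdk1 (1.001). Of 32 DNA replication genes Tyms (1.07) and Pcna (1.04) were higher. Over all genes tested, 102 of 12633 (0.807%) were higher. Pcna was at 247, 203 and 346 FPKM in the hydrogel libraries, against 136, 242 and 60.02 FPKM in the control libraries. In all 38 mitotic and all 32 replication genes hydrogel replicate 3 was the highest and control replicate 3 the lowest of the 6 libraries. Over all 12633 genes the first held for 4954 and the second for 7501. The medians were 1.07 and 0.95, and 0.36 and 0.34 without control replicate 3, where limma called 0 of these genes. Limma also called 0 of them after median-of-ratios scaling or quantile normalization, in the fit of the 6 libraries and without hydrogel replicate 3, but 36 mitotic and 31 replication genes without control replicate 2. With the erythroid lists, which hold most but not all hemoglobin rows by FPKM, taken out of the total, the medians were 1.10 and 0.98, with 4 and 3 genes called.

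Macrophage and immune genes were called in some members. Over all genes tested, 0.807% were higher and 1.48% lower. Of 19 macrophage genes Cd5l, a secreted scavenger-type protein of tissue macrophages, and Cd163, the hemoglobin-haptoglobin receptor, were higher. Cd5l was at 10.5, 7.33 and 8.77 FPKM in the hydrogel libraries, against 5.84, 6.81 and 0.812 FPKM in the control libraries (log2 fold change 1.09, unadjusted p = 0.036, limma). Cd163 was at 22.0, 22.1 and 27.7 FPKM in the hydrogel libraries, against 14.6, 20.6 and 3.78 FPKM in the control libraries (1.08). The groups did not overlap in either gene, but at 0.42 and 0.43 neither was called without control replicate 3. Lyz2, the myeloid lysozyme, was at 2763, 4483 and 3294 FPKM in the hydrogel libraries, against 3267, 2350 and 1349 FPKM in the control libraries, without a call (0.66). Ifi27l2b, an interferon-inducible gene, was at 34.3, 42.6 and 35.7 FPKM in the hydrogel libraries, against 27.5, 16.1 and 7.62 FPKM in the control libraries (1.25, unadjusted p = 0.0089, limma). It was the 1 call among 26 interferon-stimulated genes and was at 0.80 without control replicate 3, where the list's median was -0.14, against 0.54 with it. Ccl24, an eosinophil chemokine (1.12), was the 1 call among 25 chemokines and receptors, with overlap, and was not called without control replicate 3 (0.68). Cxcl13, the B cell chemokine, was at 3.09, 13.4 and 3.00 FPKM in the hydrogel libraries, against 2.38, 2.33 and 1.08 FPKM in the control libraries, and its log2 fold change of 1.11 (SE 1.22) came largely from hydrogel replicate 2. Ptgs2, the inducible cyclooxygenase, was lower (-1.37), the 1 call among 10 inflammatory cytokines and mediators, and was not called without control replicate 3 (-0.82). All 8 class II antigen presentation genes were positive, at a median of 0.68, and limma called 0 of them (1 at an unadjusted p under 0.05, 1 called by limma-voom). Cd74, the invariant chain, was at 0.89 and RT1-Da at 0.998, both with overlap.

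Skeletal muscle genes followed hydrogel replicate 3. Of 28 tested, 26 were highest in that library, against 4954 of all 12633 genes. Tnnc2, fast muscle troponin C, was at 4.29, 0.621 and 65.0 FPKM in the hydrogel libraries, against 0.732, 1.47 and 0.257 FPKM in the control libraries, and Tnni2 was at 4.35, 1.03 and 42.3 FPKM in the hydrogel libraries, against 0.965, 1.75 and 2.44 FPKM in the control libraries. Neither was called, at 2.24 (SE 1.43) and 1.55 (SE 1.16), nor was Tnni1 (0.92). Tnnc1, the troponin C of slow muscle and heart, was called higher at 1.30, and not without control replicate 3 (0.87) or hydrogel replicate 3 (0.97). The list's median was 1.01, 0.23 without hydrogel replicate 3 and 0.93 without control replicate 3. Without hydrogel replicate 2, 13 muscle genes were called higher.

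**Figure D5:**
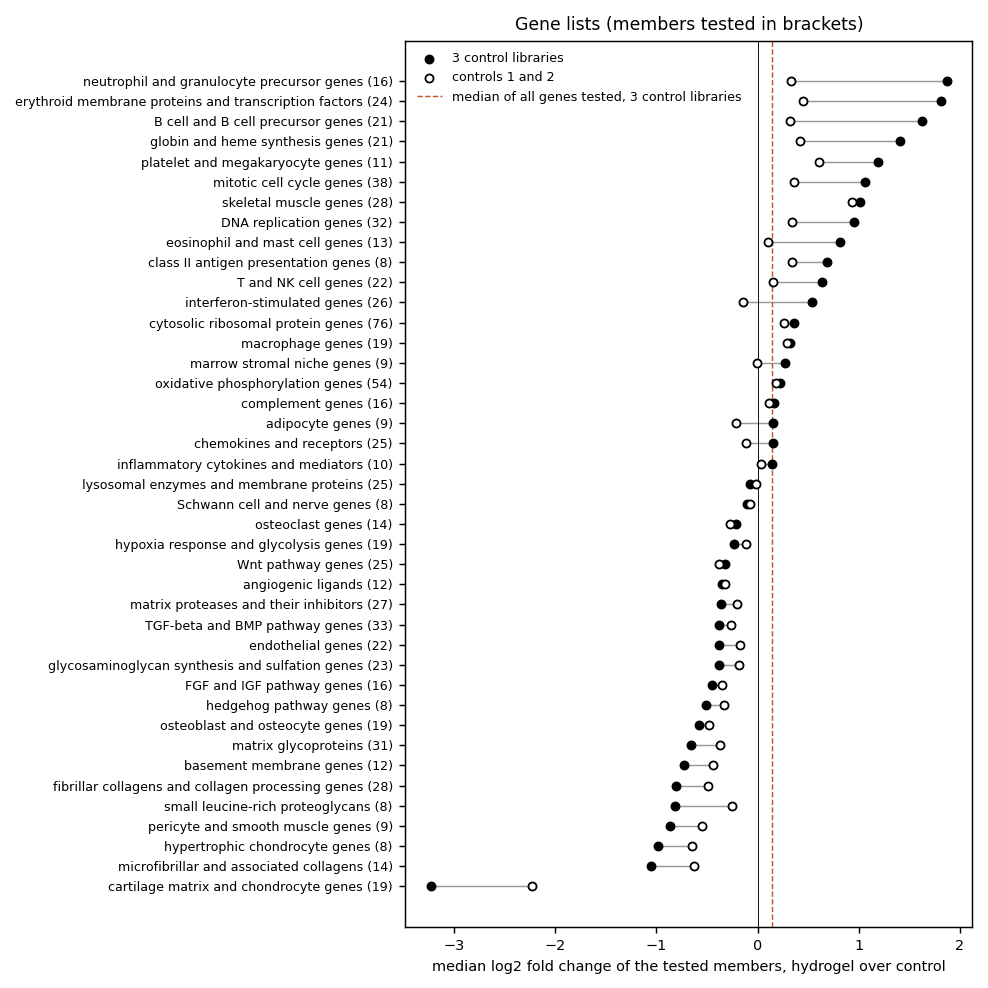
Median log2 fold change of hydrogel over control for the tested members of 41 gene lists (number of members in brackets), with filled circles for 3 control libraries, open circles for control replicates 1 and 2 and a dashed line for all genes tested. The cartilage list lies lowest at -3.23 and -2.23, and the blood cell and cell cycle lists at the top move towards 0 without control replicate 3, for neutrophil genes 1.87 with it and 0.33 without it.

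A few genes were called only once control replicate 3 was left out. There were 5 higher and 7 lower, all named after their values were seen. Rabep1, an effector of the endosomal GTPase Rab5, was at 8.52, 9.38 and 9.15 FPKM in the hydrogel libraries, against 22.2, 21.0 and 11.4 FPKM in the control libraries. Without control replicate 3 its log2 fold change was -1.17, and with Rps10l1 it was 1 of 2 genes past the adjusted threshold in that fit of limma. Egr1, an immediate early transcription factor, was at 13.8, 14.8 and 13.2 FPKM in the hydrogel libraries, against 28.2, 38.05 and 20.2 FPKM in the control libraries (-1.18 without control replicate 3, and -0.96 with it). Chac1, an enzyme that degrades glutathione, was at -1.11 without that library. Igfbp6, a binding protein of insulin-like growth factor 2, was at 15.04, 25.7 and 18.4 FPKM in the hydrogel libraries, against 11.7, 5.84 and 33.5 FPKM in the control libraries (1.12 without control replicate 3). In these genes control replicate 3 lay towards or beyond the hydrogel values.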

How the data were processed

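RNA of whole defect tissue was sequenced as paired reads. The authors cleaned reads by Trimmomatic, mapped by hisat2 and deposited FPKM per gene from cufflinks. Other programs in the submitters' processing notes are HTSeq, StringTie, Bowtie and DESeq, the build is Rnor_6.0, and versions are not given in the sources used here. The paper's methods and the sample labels name different kits and sequencers, so library strandedness is not settled. The deposited FPKM table also has 3 value columns whose names match no sample label, not used here, and the authors' annotation columns, used for names.

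FPKM were whole multiples, within 0.01, of the value of 1 fragment in all 18684 genes above 0, and the recovered fragments gave the depth and the limma-voom alternative. Within the hydrogel and the control group, libraries differed by a mean chi-square of 34.0 to 318 per gene. None of these was counted as a copy. The PCL and β-TCP libraries were not checked in this way. Of all pairs of the 12 libraries, β-TCP replicates 2 and 3 were the closest, at a distance of 17.7 (Euclidean, log2 values). Both entered the shared estimate of the spread, and the effect of this pair on that estimate was not tested. Values of log2(FPKM + 1) were fitted by limma 3.58.1 (R 4.3.3) with 1 mean per group over all 12 libraries and a trend, with two-sided p-values adjusted by Benjamini-Hochberg over 12633 genes. The fit was tested on simulated data with known changes, in which every library had the same spread. That simulation held no library that lay apart, so it cannot show how control replicate 3 affects the calls. Of 959 list symbols, 939 matched by name, 12 by synonym and 8 did not. Named genes are those taken from the study's text or figures and those past the adjusted threshold. Added were the 20 higher and 20 lower called genes with the largest changes whose groups did not overlap. From each list, up to 4 called members (or its 2 highest by mean FPKM where none was called) were also named. The members and lists were chosen with earlier results of these data known. Not every gene the rule names is reported here.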

Additional observations from a re-analysis of the deposited data

How the results depend on the processing

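Of 289 genes called at the study threshold, 102 higher and 187 lower, counts moved as follows. Higher genes were 59 with median-of-ratios scaling, 59 with quantile normalization and 239 with limma-voom on recovered fragments (512 in all). A fit of the 6 libraries only gave 173 (26 higher), with 0 at an adjusted p under 0.05 in limma, as with the replicate block. With 1 library left out, totals ranged from 94 to 1194, higher genes from 17 to 840, lower genes from 77 to 354 and genes at an adjusted p under 0.05 from 0 to 6. Weights per library gave 4174 genes at an adjusted p under 0.05, with control replicate 1 weighted 40.6 and control replicate 3 0.0439, and the weights had not converged. Deviations from the group means of same-numbered libraries correlated at 0.03, -0.61 and -0.46. With 3 libraries a group and control replicate 3 lying apart, these values cannot show whether the replicate numbers pair the libraries. The replicate block gave 54 higher genes. Log2 values of genes that were not called changed sign: without the erythroid lists in the total, Ctsb at 0.0090 and Tie1 at 0.021; with weights, Cxcl12 at -0.10, Fabp4 at -0.13 and Lyz2 at -0.021 (0.59, 0.51 and 0.66 as reported); and with 1 library left out, where Ctsb ranged from -0.12 to 0.088, Ctsk from -0.47 to 0.13, Ctsz from -0.24 to 0.068, Serpine2 from -0.57 to 0.14, Tie1 from -0.067 to 0.058, Cxcl12 from -0.058 to 0.999 and Vcam1 from -0.0056 to 1.46. Other pseudocounts, filters, the muscle list left out and no trend kept every count within 1.5 times. The causes of these changes were not tested. With 3 libraries a group, 1 library decides most calls.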
